A study of Homo sapiens with 18 samples.

Results

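PC9 and H1650 are the 2 cell lines of the study, both labelled as EGFR-mutant lung cancer lines, and their baseline RNA was compared with each other in the BrM control condition. The comparison used 6 of the 18 libraries, which were chosen by their labelled cell line, condition and treatment. There were 3 PC9 BrM control libraries and 3 H1650 BrM control libraries. Per the study's design text the cells are brain metastatic derivatives of the 2 lines, and both groups share that derivation and the treatment label control. The remaining 12 libraries carry the condition Tr-BrM, with the treatment label control in 3 libraries of each line and S100A9-inh in 3 of each, and they enter only the last comparison. BrM and Tr are kept as the labels write them. Whether a derivative was 1 clone or a pool of cells is not given in the sources used here. Nothing in the labels says that the replicates came from separate cultures, so the p-values below measure the spread between these libraries, which may be technical. Each line has its own count table, so line, table and any batch cannot be told apart in any difference below.

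EGFR is a receptor tyrosine kinase that passes growth signals through the RAS-MAPK and PI3K pathways, and mutations that keep its kinase active define a subset of lung adenocarcinomas. Such tumours often spread to the brain, where cells must attach to vessels, survive in foreign tissue and resist drugs. Lines that carry the same kind of driver can still differ in lineage, in lost tumour suppressors, and in interferon and antioxidant programmes.

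The lines differed in most of the transcriptome. Of 16840 genes tested, 7087 were higher in PC9 and 7444 were higher in H1650 at an adjusted p under 0.05 (edgeR quasi-likelihood test, Benjamini-Hochberg over all genes tested). These were 42.1% and 44.2% of the genes, or 86.3% together, and the replicates of the lines did not overlap in 86.3% of genes. A difference of at least 1 on the log2 scale was found for 44% of genes, with 20.8% higher in PC9 and 23.1% higher in H1650. A difference of at least 3 on that scale separated 979 genes higher in PC9 and 1209 higher in H1650. The median absolute difference was 0.85 and the median signed difference was -0.035. That median moved to -0.12 when libraries were scaled by upper quartile and to -0.22 when they were scaled by total count, and directions that turn with it are named where they occur. Differences are PC9 minus H1650 on the log2 scale throughout, with the standard error after the sign ±. Levels (CPM) are counts scaled to the TMM-adjusted total of the tested genes, and ± after a mean level is the SD over 3 libraries. Since most genes passed the test, a call by itself says little about a gene, and sizes and levels are given beside it. Counts of list members called are to be read against the 42.1% and 44.2% over all genes. A gene with few counts in both lines did not pass the filter on low counts, and a gene counted in 1 line only passed through that line and had to differ.

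The libraries held 20629096, 20847213 and 21742007 counts in PC9 and 22879358, 22704705 and 17396722 counts in H1650. Replicates of a line had rank correlations over 0.99, no pair was identical, and each pair differed by more than sampling noise. Mitochondrial genes took 6.68 to 6.78% of counts in PC9 and 3.31 to 3.39% in H1650, and the 10 most abundant genes took 9.41 to 9.45% in PC9 and 5.17 to 5.21% in H1650. Epithelial identity was present in both lines. EPCAM, an epithelial adhesion protein, had 322, 326 and 346 CPM in PC9 and 192, 193 and 188 CPM in H1650, and E-cadherin (CDH1) had 393, 391 and 395 CPM in PC9 and 861, 847 and 832 CPM in H1650. The lung adenocarcinoma factor NKX2-1 was near 0, with 3 counts in PC9 and 3 in H1650 over all libraries, and NAPSA had 11 counts in PC9 and 12 in H1650. Surfactant protein B (SFTPB) had 5 counts in PC9 and 11 in H1650. NKX2-1, NAPSA and SFTPB were thus near 0 in both lines, but other members of the alveolar type II and lineage list were not. Of its 28 members 11 passed the filter on low counts, and 7 of these were higher in PC9 and 3 in H1650, with a median of 2.66. ABCA3, a lipid transporter of lamellar bodies, averaged 28.1 ± 1.8 CPM in PC9 and 4.46 ± 0.39 CPM in H1650, and LAMP3, a lamellar body membrane protein, averaged 4.4 ± 0.82 CPM in PC9 and 24.1 ± 0.41 CPM in H1650.

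Markers of other cell types were measured beside the cancer genes. The summed level of 20 immune markers was 35.1, 35.6 and 35.2 CPM in PC9 and 88.4, 87.2 and 86.7 CPM in H1650, and 8 of the 20 were at 0 counts in PC9 and 1 in H1650. Most of that sum was CSF1R, at 31.9 ± 0.45 CPM in PC9 and 78.2 ± 1.5 CPM in H1650. The pan-leukocyte gene PTPRC had 0.155 ± 0.16 CPM in PC9 and 1.21 ± 0.21 CPM in H1650. The summed level of 18 fibroblast, endothelial and red cell markers was 52.2 to 56.7 CPM in PC9 and 29.2 to 31.8 CPM in H1650, of which CDH5, the cadherin of endothelium, gave 24.7, 27.2 and 22.7 CPM in PC9 and 0.165, 0.372 and 0.376 CPM in H1650. The members did not follow the sum, since 2 of the 9 tested were higher in PC9 and 5 in H1650, with a median of -2.85, and 10 of the 18 were at 0 counts in PC9 and 1 in H1650. Collagen I (COL1A1) averaged 27.4 ± 0.57 CPM in PC9 and 6.05 ± 0.94 CPM in H1650 and collagen III (COL3A1) averaged 0.0171 ± 0.03 CPM in PC9 and 12.2 ± 1 CPM in H1650. Among 20 markers of brain cells the sum was 130.1 to 136 CPM in PC9 and 147 to 152 CPM in H1650, with MOG at 0 in both lines. The largest member in that sum was the myelin gene MBP, at 78 ± 3.4 CPM in PC9 and 55.4 ± 4.1 CPM in H1650, followed in H1650 by the synaptic gene SYT1, at 0.558 ± 0.066 CPM in PC9 and 35.5 ± 0.88 CPM in H1650. Of the 10 tested brain markers, 2 were higher in PC9 and 7 in H1650. The astrocyte gene GFAP was uneven among the H1650 libraries, with 0.0518, 0.0513 and 0.0979 CPM in PC9 and 13.5, 6.5 and 3.76 CPM in H1650. PTPRC and MOG were thus at or near 0 in both lines, whereas CSF1R, a receptor of macrophages and microglia, and MBP were not. The part of other cells in these sums was not tested. In bulk RNA, fewer cells of a type and less RNA per cell cannot be told apart.

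**Figure D1:**
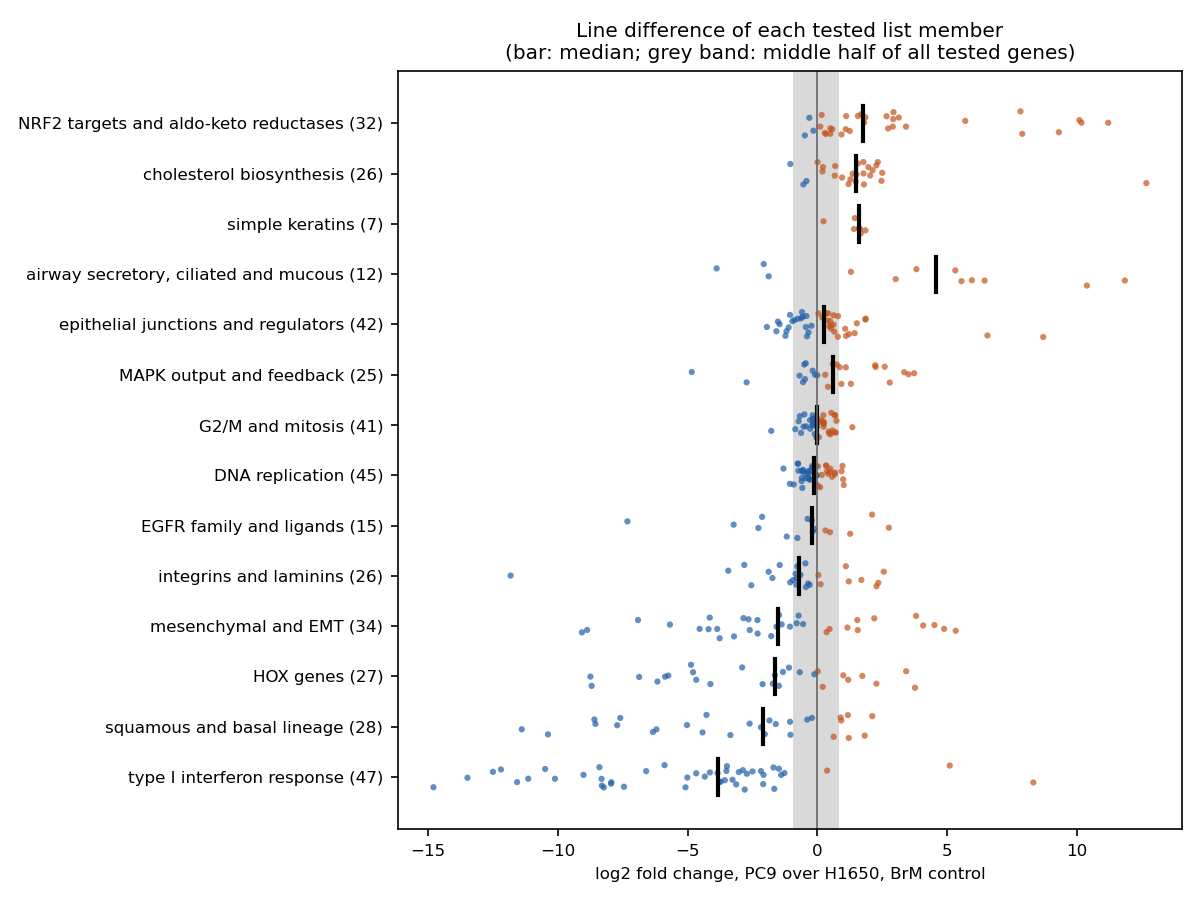
Log2 difference (PC9 minus H1650, horizontal axis) of each tested member of 14 gene lists, 1 point per gene, with the vertical bar at the list's median and the grey band over the interquartile range of all 16840 tested genes, from -0.91 to 0.80. The interferon list lies left of the band with a median of -3.85, the NRF2 and cholesterol lists lie mostly right of it with medians of 1.75 and 1.49, and the replication and mitosis lists lie close to 0.

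The interferon programme was high in H1650 and low in PC9. Of 47 tested type I interferon response genes, 44 were higher in H1650 and 3 in PC9, with a median difference of -3.85, against -0.035 over all genes. All 44 differed by at least 1, where 23.1% of all genes did. Interferons signal through JAK kinases to a complex that holds STAT2 and IRF9, and that complex binds a short promoter element, the interferon-stimulated response element, in the genes it switches on. The element was searched as GAAA, any 2 bases and GAAA again, on both strands of RefSeq promoters (build GRCh38.p14, 250 bases before to 50 after the start). It was found in 26 of the 38 list members that had a promoter there (68.4%), in 3.89% of 11708 tested genes and in 4.38% of 27305 genes with a promoter. Among members higher in H1650 by at least 1, 25 of 36 held it (69.4%). These 36 are nearly all of the 38, so that share could hardly differ from the list's. The list names interferon response genes, so a high share was built into it and says nothing about the lines. A match of letters is a description and not a bound site. The stretches before the start of 5 of the genes that separate the lines are printed below, on the plus strand, with the matches in capitals. Only genes with a match there were printed.
IFI44, chr1:78649731-78649788: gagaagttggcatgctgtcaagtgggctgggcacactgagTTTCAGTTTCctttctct
RSAD2, chr2:6877592-6877681: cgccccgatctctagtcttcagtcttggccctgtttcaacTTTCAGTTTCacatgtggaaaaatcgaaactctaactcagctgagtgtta
IFIT1, chr10:89392467-89392556: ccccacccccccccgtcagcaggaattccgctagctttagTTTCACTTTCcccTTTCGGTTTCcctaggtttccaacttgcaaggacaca
IFI27, chr14:94110588-94110677: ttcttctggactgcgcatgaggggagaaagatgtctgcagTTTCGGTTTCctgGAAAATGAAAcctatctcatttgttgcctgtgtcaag
ISG15, chr1:1013344-1013433: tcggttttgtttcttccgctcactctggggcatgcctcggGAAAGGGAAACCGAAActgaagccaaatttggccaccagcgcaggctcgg
The IFIT1 and IFI27 stretches each hold 2 separate matches, ISG15 holds 2 that overlap, and IFI44 and RSAD2 hold 1 each.

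The levels of these genes were read beside their promoters. IFI44, an interferon-induced protein, had no read in PC9 and 169, 168 and 168 CPM in H1650, which was at least 3325-fold higher in H1650 when 0 is set to 3 counts over the group. RSAD2, which encodes the antiviral enzyme viperin, had no read in PC9 and 68.2, 68.8 and 66.9 CPM in H1650, which was at least 1344-fold higher in H1650. Both genes were thus without a count in every PC9 library and abundant in every H1650 library. IFIT1, a sensor of viral RNA caps, had 1.14, 1.44 and 1.32 CPM in PC9 and 415, 409 and 414 CPM in H1650 (log2 -8.3 ± 0.056, adjusted p = 1.11e-78). ISG15, a ubiquitin-like protein, had 16.1, 16.6 and 15.3 CPM in PC9 and 397, 409 and 418 CPM in H1650 (log2 -4.67 ± 0.037). IFI27 had 0.259, 0.0513 and 0 CPM in PC9 and 492, 505 and 507 CPM in H1650 (log2 -12.19 ± 0.08). All PC9 values lay below all H1650 values for these genes, but ISG15 stayed measurable in PC9 while IFI27 was at 0 in 1 PC9 library. The antiviral GTPase MX1 had 2.95, 1.9 and 2.64 CPM in PC9 and 623, 608 and 609 CPM in H1650, and IFI6 had 3.42, 3.08 and 4.11 CPM in PC9 and 1064, 1058 and 1071 CPM in H1650.

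The difference reached the sensors and transcription factors as well as their targets, though not evenly. Cytosolic RNA sensors were lower in PC9. RIGI averaged 0.338 ± 0.13 CPM in PC9 and 177 ± 4 CPM in H1650 (SD, n = 3 in each line). IFIH1 averaged 4.18 ± 0.14 CPM in PC9 and 135 ± 5.9 CPM in H1650. The OAS enzymes that make the RNase L activator were also lower in PC9. OAS2 had 3 counts in PC9 and 11527 in H1650 (3399-fold higher in H1650, 95% counting interval 1163 to 16482), OAS1 differed by -5.89 ± 0.072 and OASL by -8.4 ± 0.07. STAT2, a signal transducer of interferon receptors, averaged 34.1 ± 1.1 CPM in PC9 and 108 ± 0.58 CPM in H1650, IRF1 averaged 6.43 ± 0.37 CPM in PC9 and 29 ± 0.5 CPM in H1650, and the receptor chain IFNAR1 averaged 30.4 ± 1.4 CPM in PC9 and 56.4 ± 2.8 CPM in H1650. STING1, the adaptor of DNA sensing, averaged 4.33 ± 0.3 CPM in PC9 and 59.6 ± 0.69 CPM in H1650. CGAS, the DNA sensor upstream of it, averaged 19.9 ± 1.9 CPM in PC9 and 16.8 ± 1.5 CPM in H1650 and MAVS, the adaptor of RNA sensing, averaged 342 ± 5.8 CPM in PC9 and 90.7 ± 3 CPM in H1650, so both were higher in PC9. Without H1650 replicate 1 the CGAS difference was 0.17 and no longer passed the test, and it also lost its call when libraries were scaled by upper quartile or by total count. The kinases JAK1 and TYK2 differed by -0.22 ± 0.025 and 0.24 ± 0.034. With total count scaling the TYK2 difference was 0.053 and no longer passed the test.

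Exceptions within the list were few. IRF7, the factor that amplifies interferon production, had 7.45, 7.02 and 7.54 CPM in PC9 and 0.0825, 0.372 and 0.161 CPM in H1650 (log2 5.1 ± 0.26) and ran against the rest of its list. LGALS3BP, a secreted glycoprotein, was higher in PC9 by 0.37 ± 0.018. The IRF9 gene had 112 counts in PC9 and 0 in H1650 while 48% of its exonic bases are shared with another gene, so its value is uncertain. Most members carried another identifier version in the 2 tables. Among the 14 with the same version, 12 were higher in H1650 and 2 in PC9, with a median of -4.23, so the direction was not limited to genes whose models differ. The interferon genes themselves were scarce. IFNB1 had 0 counts in PC9 and 30 in H1650, and IFNL1, a type III interferon, had 3 counts in PC9 and 252 in H1650 (74.3-fold higher in H1650, 95% counting interval 25.1 to 363).

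Antigen presentation and chemokines followed the same direction in part. Of 24 MHC genes, 17 were higher in H1650 and 6 in PC9, with a median of -0.83. Beta-2-microglobulin (B2M), the light chain of class I molecules, averaged 201 ± 8.7 CPM in PC9 and 855 ± 17.6 CPM in H1650, and the class II invariant chain CD74 averaged 0.17 ± 0.12 CPM in PC9 and 17.2 ± 0.4 CPM in H1650. The immunoproteasome subunit PSMB9 and the peptide transporter TAP1 differed by -1.49 ± 0.058 and -1.17 ± 0.043. CCL5, a T cell chemokine, had 0, 0 and 0.0979 CPM in PC9 and 82.9, 83.6 and 82.5 CPM in H1650, that is 2 counts in PC9 against 5562 in H1650 (2460-fold higher in H1650, 95% counting interval 681 to 20317). The checkpoint ligand CD274 averaged 4.22 ± 0.083 CPM in PC9 and 10.4 ± 0.088 CPM in H1650, and CD55, which protects cells from complement, differed by -2.68 ± 0.044. Of 36 NF-kappaB targets and cytokines, 14 were higher in PC9, among them LIF (2.8 ± 0.058), C3 (3.45 ± 0.063) and ICAM1 (2.75 ± 0.084), and 21 were higher in H1650. The shares over all genes were 42.1% higher in PC9 and 44.2% higher in H1650.

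**Figure D2:**
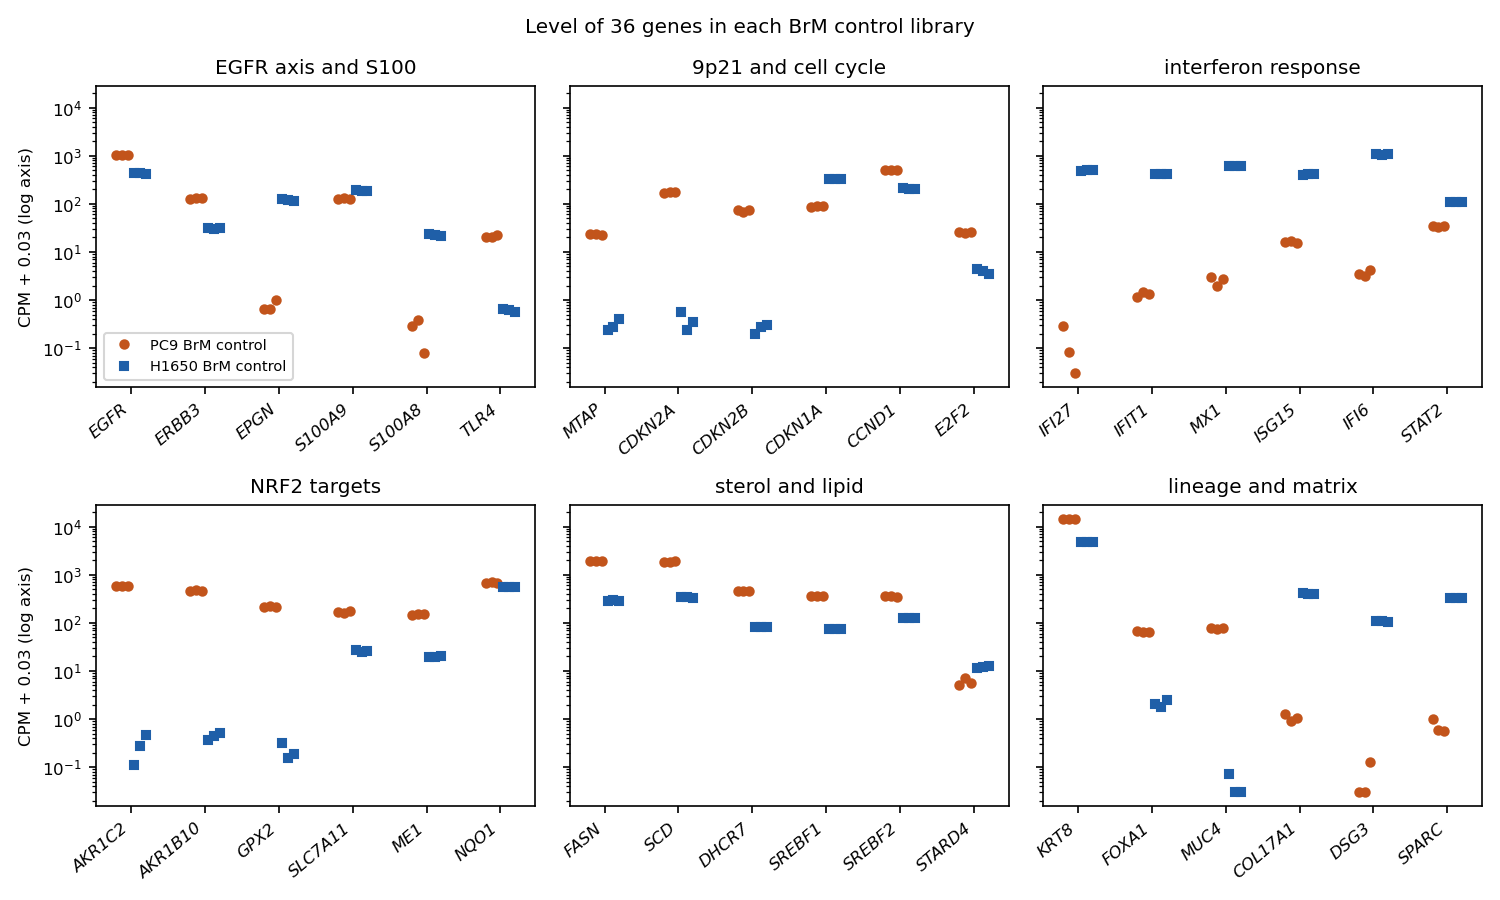
Level of 36 genes in each library, as CPM plus 0.03 on a log axis, in 6 panels for the EGFR and S100A9 axis, 9p21 and cell cycle genes, interferon response, NRF2 targets, sterol genes and lineage. Each point is 1 library, with 3 PC9 and 3 H1650 libraries per gene. Points of a line lie close together, IFI27 at 492 to 507 CPM in H1650 is near 0 in PC9, and AKR1C2 at 574 to 578 CPM in PC9 is near 0 in H1650.

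EGFR itself was higher in PC9, while most of its ligands were higher in H1650. EGFR (chr7:55019021-55211628, plus strand, GRCh38) had 1034, 1015 and 1037 CPM in PC9 and 437, 433 and 418 CPM in H1650 (log2 1.26 ± 0.019, adjusted p = 7.57e-58). The receptor was abundant in both lines and every PC9 library was above every H1650 library. ERBB3, the partner receptor that couples to PI3K, had 128, 133 and 131 CPM in PC9 and 30.7, 29.4 and 31 CPM in H1650 (log2 2.11 ± 0.04), and ERBB2 averaged 131 ± 0.8 CPM in PC9 and 170.5 ± 2.7 CPM in H1650. The ligands came from several genes. Epigen (EPGN) had 0.621, 0.615 and 0.979 CPM in PC9 and 123, 119 and 115 CPM in H1650 (log2 -7.32 ± 0.089), and HBEGF had 12, 13.9 and 13.8 CPM in PC9 and 59.7, 57.8 and 56.8 CPM in H1650 (log2 -2.13 ± 0.06). EGF itself averaged 1.78 ± 0.23 CPM in PC9 and 16.6 ± 0.39 CPM in H1650, the ERBB3 ligand NRG1 averaged 4.18 ± 0.4 CPM in PC9 and 20.2 ± 0.39 CPM in H1650, and amphiregulin (AREG) averaged 9.73 ± 0.73 CPM in PC9 and 22.1 ± 0.23 CPM in H1650. Epiregulin (EREG) ran the other way, at 4.84 ± 0.57 CPM in PC9 and 0.69 ± 0.27 CPM in H1650, as did betacellulin (BTC), at 3.54 ± 0.5 CPM in PC9 and 2.53 ± 0.17 CPM in H1650. With total count scaling the BTC difference was 0.30 and no longer passed the test. Over the 15 tested members of the family, 5 were higher in PC9 and 9 in H1650, with a median of -0.22.

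Other growth factor receptors differed in both directions. MET, which can carry growth signals when EGFR is inhibited, averaged 106 ± 1.5 CPM in PC9 and 315 ± 5.7 CPM in H1650 (log2 -1.58 ± 0.026), and AXL, linked to the same escape, averaged 31.4 ± 0.39 CPM in PC9 and 192 ± 5.2 CPM in H1650 (log2 -2.61 ± 0.037). The insulin-like growth factor receptor IGF1R was higher in PC9, at 126 ± 1.7 CPM in PC9 and 23.2 ± 1.6 CPM in H1650. FGFR1 and FGFR2 differed by -2.6 ± 0.074 and -4.59 ± 0.093, both lower in PC9, and so did their ligand FGF2 (-9.67 ± 0.13). Of 39 other receptor kinases and ligands tested, 17 were higher in PC9 and 18 in H1650, and the median sign of that list turned with the scaling.

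S100A9, a secreted calcium-binding protein and the target named in the S100A9-inh label, was the gene of its pair that differed less. S100A9 (chr1:153357854-153361027) had 125, 134 and 126 CPM in PC9 and 198, 188 and 181 CPM in H1650 (log2 -0.56 ± 0.03, adjusted p = 1.68e-26). The H1650 libraries were all higher, and the lines overlapped in no library. Its dimer partner S100A8 differed far more, with 0.259, 0.359 and 0.049 CPM in PC9 and 23.2, 22.4 and 21.7 CPM in H1650 (log2 -6.64 ± 0.19). In PC9, S100A9 was thus measured with almost no S100A8 RNA. Receptors differed in both directions. TLR4, an innate receptor of S100A9, had 20.8, 20.7 and 22 CPM in PC9 and 0.619, 0.58 and 0.538 CPM in H1650 (log2 5.17 ± 0.15). The adhesion protein ALCAM averaged 90.6 ± 3.6 CPM in PC9 and 42 ± 0.58 CPM in H1650 and basigin (BSG) averaged 703 ± 15.4 CPM in PC9 and 438 ± 11.6 CPM in H1650, both higher in PC9, while embigin (EMB) averaged 0.757 ± 0.15 CPM in PC9 and 24 ± 0.6 CPM in H1650 and neuroplastin (NPTN) averaged 85.3 ± 1.5 CPM in PC9 and 270.1 ± 6.3 CPM in H1650. AGER, the receptor for glycated proteins, did not pass the test (log2 0.064 ± 0.13, adjusted p = 0.644). Of 16 S100 genes tested, 6 were higher in PC9 and 9 in H1650, where 42.1% and 44.2% of all genes were so. S100P had 105, 113 and 95.5 CPM in PC9 and 1.73, 1.99 and 2.96 CPM in H1650 (log2 5.59 ± 0.084), and S100A2, S100A4 and S100A10 differed by -1.85 ± 0.071, -1.48 ± 0.09 and -1.03 ± 0.019.

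The 9p21 tumour suppressors were expressed in PC9 and near 0 in H1650. CDKN2A (chr9:21967753-21995301), which encodes the CDK4 inhibitor p16 and the MDM2 inhibitor p14ARF, had 164, 175 and 175 CPM in PC9 and 0.537, 0.207 and 0.323 CPM in H1650 (log2 8.88 ± 0.09, adjusted p = 3.09e-68). CDKN2B (chr9:22002903-22009363), a related CDK inhibitor, had 73.6, 68.9 and 73 CPM in PC9 and 0.165, 0.248 and 0.269 CPM in H1650 (log2 8.29 ± 0.12). MTAP (chr9:21802543-21937651), the neighbouring enzyme of the methionine salvage pathway, had 23.2, 24.1 and 22.5 CPM in PC9 and 0.206, 0.248 and 0.376 CPM in H1650 (log2 6.4 ± 0.17). All H1650 libraries were under 1 CPM for these neighbours. The antisense RNA of the locus, CDKN2B-AS1, had 223 counts in PC9 and 1 in H1650 (252-fold higher in PC9, 95% counting interval 44.8 to 10002). Genes on either side of the cluster were expressed in H1650. MLLT3, on the telomeric side, averaged 15.4 ± 0.56 CPM in PC9 and 10.4 ± 0.57 CPM in H1650, FOCAD averaged 45.7 ± 0.82 CPM in PC9 and 55.8 ± 1.8 CPM in H1650, KLHL9 averaged 24.3 ± 0.47 CPM in PC9 and 42.4 ± 0.46 CPM in H1650, and TUSC1, on the centromeric side, averaged 11.2 ± 0.92 CPM in PC9 and 24.7 ± 0.73 CPM in H1650. ELAVL2 (chr9:23690104-23826337), a neuronal RNA-binding protein, had no read in PC9 and 18.4, 17.6 and 17.5 CPM in H1650, at least 353-fold higher in H1650. DMRTA1, the next tested protein-coding gene after the cluster, averaged 1.15 ± 0.21 CPM in PC9 and 5.04 ± 0.62 CPM in H1650. CDKN2A carried another identifier version in the 2 tables.

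**Figure D3:**
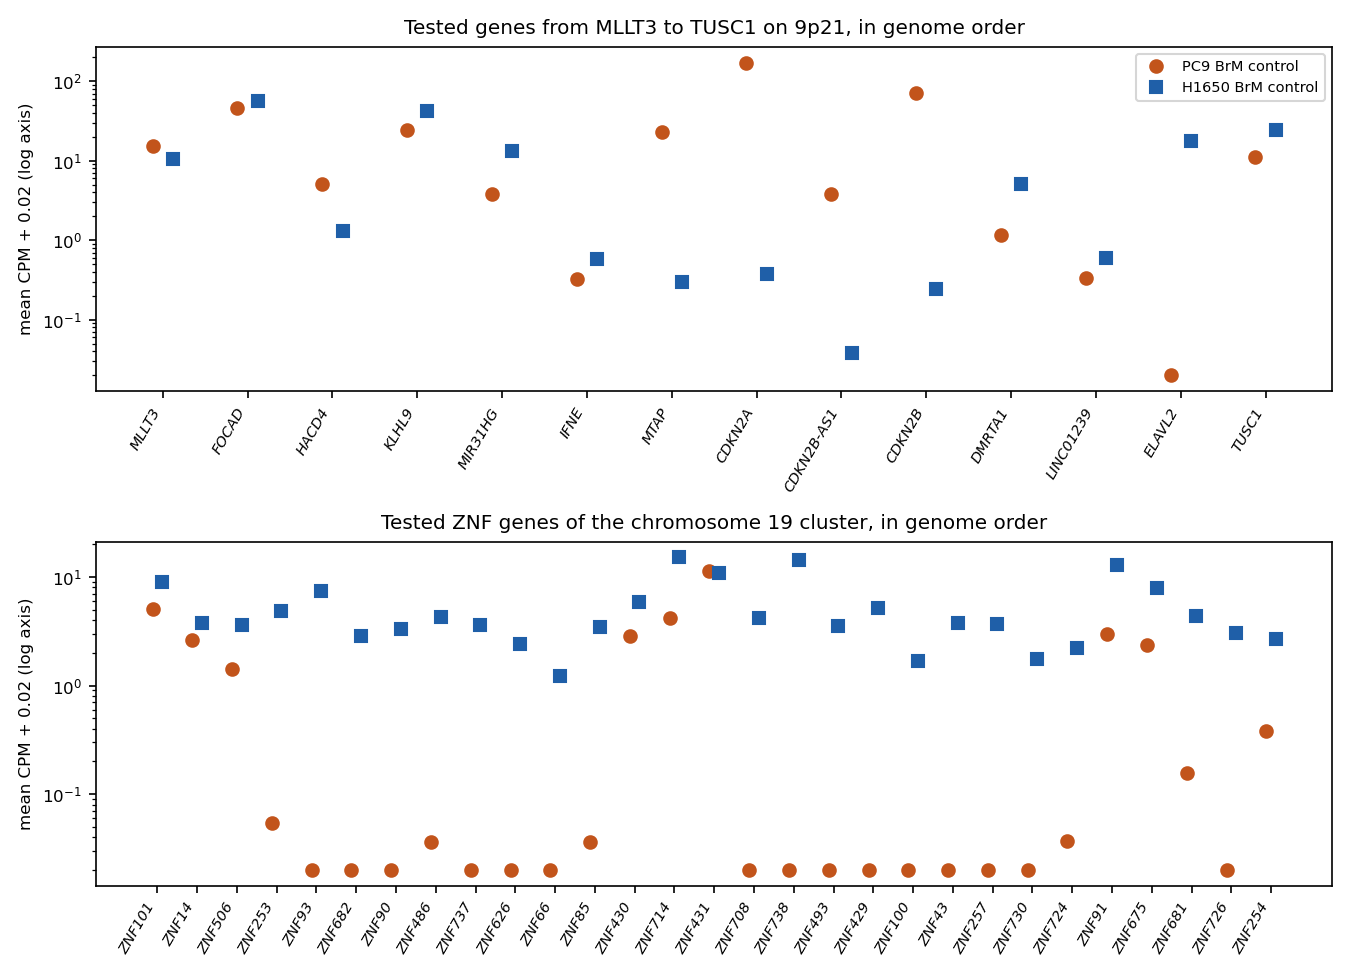
Mean level of genes in genome order in PC9 and H1650 (n = 3 libraries each), as CPM plus 0.02 on a log axis, for chromosome 9p21 from MLLT3 to TUSC1 and for 29 zinc finger genes of chromosome 19. H1650 is near 0 at MTAP, CDKN2A and CDKN2B, where PC9 has means of 23.3 to 172 CPM, and PC9 has at most 3 counts over its libraries at 19 of the zinc finger genes, with ZNF431 near the H1650 level.

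Proliferation genes differed little in size. Of 45 DNA replication genes, 15 were higher in PC9 and 23 in H1650, but only 6.67% differed by at least 1, against 44% of all genes, and the median was -0.13. Of 41 G2 and mitosis genes, 19 were higher in PC9 and 17 in H1650, 4.88% differed by at least 1, and the median was -0.019. ANLN, a cytokinesis scaffold, averaged 179.5 ± 1.2 CPM in PC9 and 616 ± 12.7 CPM in H1650. HMMR, a spindle protein, averaged 62.2 ± 1.6 CPM in PC9 and 24.4 ± 0.96 CPM in H1650. These were the exceptions in the mitosis list. Among replication genes, 1 was higher in PC9 and 2 were higher in H1650 by that size. Of 23 cell cycle entry genes and inhibitors, 47.8% differed by at least 1. CDKN1A, which encodes the CDK inhibitor p21, had 87.3, 91.6 and 89 CPM in PC9 and 321, 329 and 327 CPM in H1650 (log2 -1.87 ± 0.027), lower in every PC9 library. Cyclin D1 (CCND1) averaged 504 ± 5 CPM in PC9 and 206 ± 3.9 CPM in H1650, E2F2 averaged 25.4 ± 0.75 CPM in PC9 and 3.93 ± 0.51 CPM in H1650, RB1 averaged 38.8 ± 3.5 CPM in PC9 and 20.2 ± 0.13 CPM in H1650 and cyclin E1 (CCNE1) averaged 16.6 ± 0.053 CPM in PC9 and 48.3 ± 1.3 CPM in H1650, the last of these higher in H1650.

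The NRF2 antioxidant programme was higher in PC9. NRF2, encoded by NFE2L2, is a transcription factor held low by KEAP1, and it switches on enzymes of glutathione synthesis, NADPH supply and detoxification. The list holds NRF2 targets, aldo-keto reductases and NFE2L2 itself. Of 32 tested members, 29 were higher in PC9 and 2 in H1650, with a median of 1.75. By at least 1, 21 were higher in PC9, against none in H1650. NFE2L2 was among the 2 higher in H1650. AKR1C2 had 575, 574 and 578 CPM in PC9 and 0.0825, 0.248 and 0.43 CPM in H1650, and AKR1B10, a carbonyl reductase, had 469, 472 and 469 CPM in PC9 and 0.33, 0.414 and 0.484 CPM in H1650 (log2 10.17 ± 0.062). Glutathione peroxidase 2 (GPX2) had 218, 220.3 and 214 CPM in PC9 and 0.289, 0.124 and 0.161 CPM in H1650 (log2 10.09 ± 0.087). These genes were near 0 in H1650 and abundant in PC9. Members of the AKR1C family are near-identical, so the split of reads among AKR1C1, AKR1C2 and AKR1C3 is uncertain. The NADPH-making malic enzyme ME1 averaged 150.3 ± 6.1 CPM in PC9 and 19.9 ± 0.47 CPM in H1650 (log2 2.92 ± 0.044). The cystine transporter SLC7A11 averaged 166 ± 7 CPM in PC9 and 26.2 ± 1.2 CPM in H1650, and the glutathione synthesis subunits GCLM and GCLC differed by 1.56 ± 0.04 and 0.49 ± 0.054.

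Not every classic target took part to the same degree. NQO1, a quinone reductase often used as a readout of NRF2, averaged 681 ± 8.9 CPM in PC9 and 558 ± 6.3 CPM in H1650 (log2 0.29 ± 0.019), a small difference. Haem oxygenase (HMOX1) had 25.2, 21.5 and 24.6 CPM in PC9 and 33.4, 33.1 and 33.4 CPM in H1650 (log2 -0.48 ± 0.06) and was lower in every PC9 library. NFE2L2 averaged 66 ± 2.5 CPM in PC9 and 82 ± 1.3 CPM in H1650 and KEAP1 averaged 191 ± 6.6 CPM in PC9 and 135 ± 2.2 CPM in H1650. The drug efflux pumps ABCC2 and ABCC3 were higher in PC9, with ABCC2 at 329.5 ± 7.7 CPM in PC9 and 6.33 ± 0.42 CPM in H1650 and ABCC3 differing by 3.13 ± 0.029. Of 16 tested genes of glutathione transferases and glucuronosyltransferases, 11 were higher in PC9 and 5 in H1650, with a median of 1.69. UGT1A1, a glucuronosyltransferase, averaged 14 ± 0.31 CPM in PC9 and 0.0138 ± 0.024 CPM in H1650. It carried another identifier version in the 2 tables and 49.85% of its exonic bases are shared, so its value is uncertain. GSTP1 had 1010, 1023 and 997 CPM in PC9 and 1.69, 2.44 and 4.62 CPM in H1650 (log2 8.5 ± 0.051), while GSTO2 and MGST3 were higher in H1650 (log2 -1.6 ± 0.065 and -1.47 ± 0.045).

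Aldehyde dehydrogenases and retinoid genes differed gene by gene. Of 32 tested, 19 were higher in PC9 and 13 in H1650, with a median of 0.63. ALDH1A1, a retinaldehyde dehydrogenase used as a marker of stem-like cells, was low in both lines, with 2.23, 2.41 and 2.3 CPM in PC9 and 0.33, 0.331 and 0.538 CPM in H1650 (log2 2.55 ± 0.31). ALDH3A1, which clears medium-chain aldehydes, had 53.2, 56 and 54.1 CPM in PC9 and 0.289, 0.0828 and 0.215 CPM in H1650 (log2 8.09 ± 0.14). STRA6, the retinol uptake receptor, had 85.8, 88.4 and 95.4 CPM in PC9 and 0.124, 0.0828 and 0.0538 CPM in H1650 (log2 9.88 ± 0.13), and the retinoic acid carrier CRABP2 had 170.3, 166 and 164 CPM in PC9 and 1128, 1119 and 1137 CPM in H1650 (log2 -2.76 ± 0.021). The uptake receptor was thus higher in PC9 and the carrier higher in H1650. Among cytochromes, CYP1B1 averaged 66.6 ± 2 CPM in PC9 and 275 ± 5.5 CPM in H1650 and CYP1A1 averaged 0.339 ± 0.085 CPM in PC9 and 16 ± 0.51 CPM in H1650, and AHR, the receptor that switches both on, averaged 10.8 ± 0.63 CPM in PC9 and 43.7 ± 2.7 CPM in H1650 with 32% of its exonic bases shared.

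Sterol and fatty acid synthesis genes were mostly higher in PC9. SREBP transcription factors switch on the cholesterol and lipid synthesis genes when membranes are short of sterol. Of 26 tested members, 22 were higher in PC9 and 3 in H1650, with a median of 1.49, and 17 were higher in PC9 by at least 1. Of the 17 members with the same identifier version in both tables, 14 were higher in PC9. Fatty acid synthase (FASN) had 1935, 1925 and 1902 CPM in PC9 and 284, 296 and 282 CPM in H1650 (log2 2.74 ± 0.019), and the desaturase SCD had 1871, 1836 and 1894 CPM in PC9 and 343, 342 and 329 CPM in H1650 (log2 2.46 ± 0.019). DHCR7, a late enzyme of cholesterol synthesis, averaged 459 ± 6.7 CPM in PC9 and 81.4 ± 1.1 CPM in H1650. SREBF1, the lipogenic SREBP gene, averaged 360.5 ± 3.9 CPM in PC9 and 74.7 ± 0.38 CPM in H1650, and SREBF2 was higher in PC9 by 1.48 ± 0.026. STARD4, a sterol carrier, had 5.02, 6.97 and 5.68 CPM in PC9 and 11.5, 12.3 and 12.7 CPM in H1650 (log2 -1.04 ± 0.11).

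Simple keratins and airway mucins were mostly higher in PC9. All 7 tested simple keratins were higher in PC9, with a median of 1.60. KRT8 had 14371, 14602 and 14481 CPM in PC9 and 4794, 4797 and 4765 CPM in H1650 (log2 1.6 ± 0.013) and KRT19 had 4357, 4393 and 4364 CPM in PC9 and 1214, 1203 and 1221 CPM in H1650 (log2 1.85 ± 0.015), so simple keratins were abundant in both lines. Of 27 airway secretory, ciliated and mucous genes, 12 passed the filter on low counts. Of these, 9 were higher in PC9 and 3 in H1650, with a median of 4.56. Members that did not pass were near 0 in both lines. Among them were SCGB1A1 (0 counts in PC9 and 2 in H1650), MUC5AC (3 and 0) and FOXJ1 (12 and 8). The membrane mucin MUC4 had 78.6, 73.8 and 76.3 CPM in PC9 and 0.0413, 0 and 0 CPM in H1650, with 1 count in H1650 (5108-fold higher in PC9, 95% counting interval 916 to 201796), and MUC16 had 75.6, 74 and 78.8 CPM in PC9 and 1.77, 1.66 and 2.42 CPM in H1650 (log2 5.31 ± 0.084). The gel-forming mucin gene MUC5B differed by 5.55 ± 0.38 and WFDC2 by 3.81 ± 0.096. Mesothelin (MSLN) had 10.3, 8.92 and 9.94 CPM in PC9 and 145, 140.5 and 146 CPM in H1650 (log2 -3.88 ± 0.051), the secreted inhibitor SLPI averaged 88.4 ± 5.6 CPM in PC9 and 371 ± 12.1 CPM in H1650, and MUC1 averaged 5.78 ± 0.59 CPM in PC9 and 21.3 ± 1.3 CPM in H1650, these 3 being higher in H1650. FOXA1, a pioneer factor of the airway and gut epithelium, had 68, 63.4 and 64.2 CPM in PC9 and 1.98, 1.78 and 2.42 CPM in H1650 (log2 5.0 ± 0.086). CEACAM6 had 31.2, 30.5 and 34.6 CPM in PC9 and 0.289, 0.372 and 0.538 CPM in H1650 (log2 6.35 ± 0.15).

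Squamous and basal genes were mostly higher in H1650. Of 28 tested, 20 were higher in H1650 and 6 in PC9, with a median of -2.10. Desmoglein 3 (DSG3), the basal desmosomal cadherin, had 0, 0 and 0.0979 CPM in PC9 and 108, 108 and 103 CPM in H1650, with 2 counts in PC9 (3150-fold higher in H1650, 95% counting interval 872 to 26017). Collagen XVII (COL17A1), which anchors basal cells, had 1.24, 0.872 and 1.03 CPM in PC9 and 411, 406 and 399.8 CPM in H1650 (log2 -8.59 ± 0.058). The basal keratin KRT5 averaged 0.203 ± 0.09 CPM in PC9 and 15.4 ± 2.2 CPM in H1650, KRT14 differed by -6.34 ± 0.3, KRT17 by -7.71 ± 0.12 and KRT16 had 24.9, 23.4 and 20.6 CPM in PC9 and 493, 495 and 488 CPM in H1650 (log2 -4.42 ± 0.034). Each of these was far lower in every PC9 library. TP63, the master factor of basal cells, was under 1 CPM on average in both lines and did not pass the test (0.762 ± 0.2 CPM in PC9 and 0.479 ± 0.14 CPM in H1650, adjusted p = 0.122). ITGB4 at 505 ± 10.3 CPM in PC9 and 219 ± 1.4 CPM in H1650 and KRT6B (log2 1.82 ± 0.084) were among the 6 members higher in PC9, the second of these with near-identical copies. In the general epithelial list, 22 of 42 were higher in PC9 and 19 in H1650. EHF, an epithelial ETS factor, had 106, 108 and 109 CPM in PC9 and 0.33, 0.166 and 0.269 CPM in H1650 (log2 8.7 ± 0.1).

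Mesenchymal genes were split, with opposite extremes. Of 34 tested, 11 were higher in PC9 and 23 in H1650, with a median of -1.53. Fibronectin (FN1) had 12691, 12587 and 12675 CPM in PC9 and 735, 763 and 757 CPM in H1650 (log2 4.07 ± 0.016) and carried another identifier version in the 2 tables. N-cadherin (CDH2) had 42, 44.4 and 40.7 CPM in PC9 and 1.4, 1.49 and 1.4 CPM in H1650 (log2 4.88 ± 0.1). Against these, the matrix protein SPARC had 0.984, 0.564 and 0.539 CPM in PC9 and 322, 328 and 329.8 CPM in H1650 (log2 -8.87 ± 0.067), and COL3A1 had 1 count in PC9 and 825 in H1650 (729.7-fold higher in H1650, 95% counting interval 131 to 28857). FAP, a protease of activated fibroblasts, had 3 counts in PC9 and 457 in H1650 (135-fold higher in H1650, 95% counting interval 45.8 to 656). Vimentin (VIM) had 4.14, 2.87 and 3.13 CPM in PC9 and 21.1, 22.3 and 20.4 CPM in H1650 (log2 -2.65 ± 0.11), with 24% of its exonic bases shared with another gene. The EMT factors TWIST1, SNAI1 and ZEB1 were lower in PC9 by RNA (log2 -4.19 ± 0.21, -2.31 ± 0.09 and -2.3 ± 0.51).

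Adhesion receptors and genes linked to brain colonisation differed gene by gene. Of 26 integrins and laminins, 7 were higher in PC9 and 17 in H1650. ITGA2, a collagen receptor chain, had 616, 626 and 618 CPM in PC9 and 132, 129 and 122 CPM in H1650 (log2 2.27 ± 0.024), and ITGA4, which binds VCAM1 on vessels, had 0, 0.102 and 0 CPM in PC9 and 148, 137 and 144 CPM in H1650, with 2 counts in PC9 (4237-fold higher in H1650, 95% counting interval 1173 to 34990). ITGA6 averaged 232 ± 4.8 CPM in PC9 and 853 ± 14.8 CPM in H1650, and ITGB8 and ITGA1 differed by -2.82 ± 0.051 and -3.43 ± 0.071. Among 28 genes listed as brain metastasis mediators, 13 were higher in PC9 and 10 in H1650, with a median of 0.082 that turned negative when libraries were scaled by upper quartile (-0.0052) or by total count (-0.10). Of all genes, 42.1% were higher in PC9 and 44.2% in H1650, so these counts do not set the mediators apart. L1CAM, an adhesion molecule used for spreading on brain capillaries, had 440.1, 448 and 426 CPM in PC9 and 12.9, 13.6 and 13.8 CPM in H1650 (log2 5.03 ± 0.037, with 11% of exonic bases shared). Tissue plasminogen activator (PLAT) had 20.4, 21.5 and 22.2 CPM in PC9 and 0.495, 0.662 and 0.43 CPM in H1650 (log2 5.3 ± 0.15), PTGS2 differed by 4.47 ± 0.17 and the protease inhibitor gene SERPINE2 by 2.41 ± 0.027. ST6GALNAC5, a sialyltransferase linked to passage of the blood-brain barrier, had 2 counts in PC9 and 623 in H1650 (276-fold higher in H1650, 95% counting interval 76 to 2280). ANGPTL4 differed by -4.8 ± 0.099 and MMP2, a gelatinase, had 0.569, 0.461 and 0.196 CPM in PC9 and 39.5, 42.6 and 43.6 CPM in H1650 (log2 -6.67 ± 0.14).

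Signalling outputs downstream of EGFR were mixed. Over all genes 42.1% were higher in PC9 and 44.2% in H1650, and the list counts here are read beside these shares. Of 25 genes of MAPK output and feedback, 14 were higher in PC9 and 8 in H1650, with a median of 0.59. ETV4 had 97.3, 94.1 and 100.2 CPM in PC9 and 8.38, 7.16 and 6.24 CPM in H1650 (log2 3.73 ± 0.061) and the phosphatase gene DUSP4 had 222, 218 and 214 CPM in PC9 and 21.3, 21.8 and 21.5 CPM in H1650 (log2 3.34 ± 0.038), whereas ETV1 differed by -4.84 ± 0.24 and DUSP1 had 14.6, 16.5 and 14.5 CPM in PC9 and 101, 101 and 99.9 CPM in H1650 (log2 -2.73 ± 0.051). Of 21 PI3K pathway genes, 12 were higher in PC9 and 4 in H1650, among them IRS1 (2.45 ± 0.051), higher in PC9, and PIK3R1 (-1.67 ± 0.1), higher in H1650. Among 51 genes of Wnt, Notch and TGF-beta signals, 30 were higher in PC9 and 17 in H1650. Activin subunit INHBB had 227, 229.9 and 217 CPM in PC9 and 1.57, 1.86 and 2.04 CPM in H1650 (log2 6.95 ± 0.062), and the receptor TGFBR1 averaged 249 ± 3 CPM in PC9 and 28.4 ± 1.5 CPM in H1650. BMP7 and the BMP target genes ID1 and ID2 were lower in PC9 (log2 -7.08 ± 0.12, -3.01 ± 0.04 and -6.17 ± 0.16), while BMP4 was higher by 4.76 ± 0.19. YAP targets were split, 14 against 11, although CCN1 averaged 151 ± 7.6 CPM in PC9 and 806 ± 0.25 CPM in H1650 and CCN2 differed by -2.59 ± 0.049.

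HOX and cancer testis genes differed in both directions. Of 27 HOX genes tested, 6 were higher in PC9 and 18 in H1650, with a median of -1.64, where 42.1% and 44.2% of all genes were so. HOXC10, HOXA13 and HOXB2 were higher in H1650 (log2 -4.79 ± 0.17, -6.16 ± 0.25 and -5.87 ± 0.27), and HOXB13, HOXC11 and HOXB7 were higher in PC9 (log2 3.76 ± 0.29, 1.73 ± 0.12 and 1.0 ± 0.084). The cancer testis gene MAGEA3 had 122, 125 and 123 CPM in PC9 and 0.206, 0.29 and 0.43 CPM in H1650 (log2 8.66 ± 0.098), with a near-identical copy in MAGEA6 that leaves the split of reads uncertain. PRAME averaged 0.137 ± 0.12 CPM in PC9 and 38.2 ± 1.6 CPM in H1650 and was near 0 in PC9. The neuronal hydrolase UCHL1 had 461, 457 and 460.1 CPM in PC9 and 5.74, 4.35 and 3.93 CPM in H1650 (log2 6.6 ± 0.045), while synaptotagmin 1 (SYT1) was higher in H1650 (log2 -5.98 ± 0.13).

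Most genes of a zinc finger block on chromosome 19 were at or near 0 in PC9. These genes encode KRAB zinc finger proteins, many of which repress transposable elements. Between ZNF101 (start 19668796) and ZNF254 (end 24129961), 29 ZNF genes were tested, 28 were higher in H1650 and none in PC9, and 19 had at most 3 counts over the PC9 libraries. Those 19 passed the filter on low counts through H1650 and had to differ. Of all genes, 44.2% were higher in H1650. The block was chosen after its values were seen and gets no test. Its median difference was -7.66, or -5.82 with genes at 0 counts set to their bound. ZNF93 had no read in PC9 and 7.22, 6.95 and 7.91 CPM in H1650 (at least 144-fold higher in H1650), and ZNF738 had no read in PC9 and 12.9, 15.4 and 14.9 CPM in H1650 (at least 283-fold higher in H1650). Other members were counted in PC9 at a lower level, with ZNF101 at 5.08 ± 1.1 CPM in PC9 and 8.9 ± 0.65 CPM in H1650, ZNF714 at 4.17 ± 0.76 CPM in PC9 and 15.1 ± 0.62 CPM in H1650 and ZNF91 at 2.97 ± 0.32 CPM in PC9 and 12.8 ± 1.1 CPM in H1650. ZNF431 was the member that did not pass the test, with 12.5, 10.3 and 11.4 CPM in PC9 and 11.5, 11.4 and 9.84 CPM in H1650 (log2 0.054 ± 0.095, adjusted p = 0.596). The lines overlapped at ZNF431. The other 196 ZNF genes of chromosome 19 had a median of -0.61, the 236 on other chromosomes had 0.12, and the 805 other protein-coding genes of chromosome 19 had -0.0055.

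Whole chromosomes differed by smaller amounts. On chromosome 13 the median difference was 0.68, with 63.5% of its 282 tested genes higher in PC9. On chromosome 4 the median was -0.62, with 67.8% of its 584 tested genes higher in H1650. Chromosomes 17 and 14 had medians of 0.38 and 0.33, and chromosomes 21 and 15 had medians of -0.55 and -0.43. Relative to the median of all genes the chromosome 13 value was 0.72 and the chromosome 4 value was -0.58. Of 13 mitochondrial protein-coding genes, 12 were higher in PC9 with a median of 1.10. MT-CO1 averaged 19248 ± 106 CPM in PC9 and 5141 ± 68 CPM in H1650, and MT-ND6, the 1 gene of the opposite strand, averaged 487 ± 6.5 CPM in PC9 and 561 ± 6.4 CPM in H1650 (log2 -0.2 ± 0.02).

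**Figure D4:**
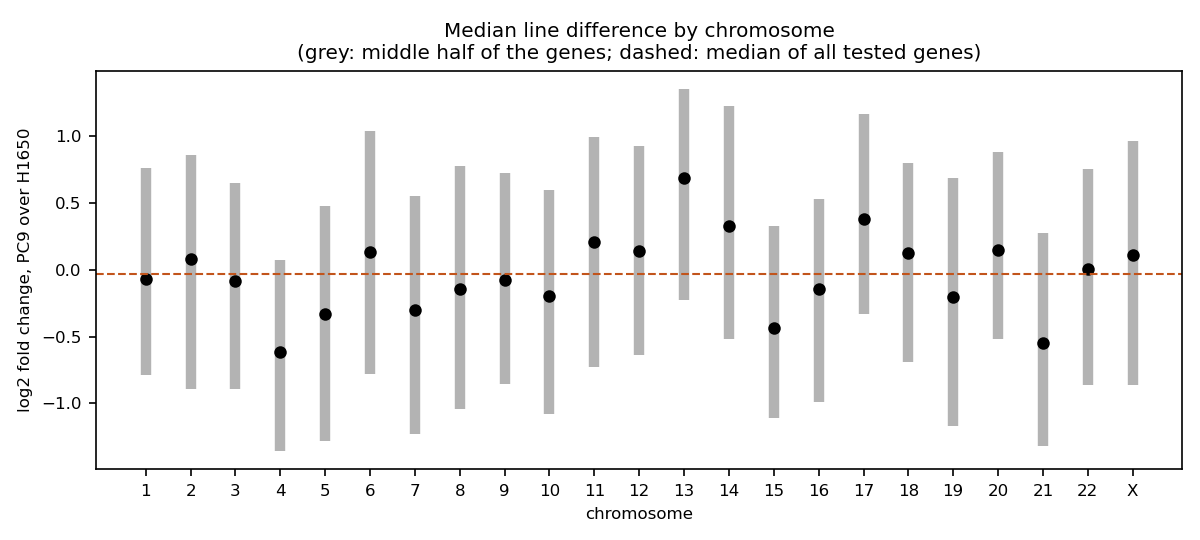
Median log2 difference (PC9 minus H1650) of the tested genes of chromosomes 1 to 22 and X, as points, with lines over the interquartile range of the genes and a dashed line at the median of all genes, -0.035. Chromosome 13 has the highest median, 0.68, and chromosome 4 the lowest, -0.62, and the interquartile ranges of these 2 chromosomes overlap.

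Some genes were counted in a single line. At 10 CPM or more in the mean of 1 line and at most 3 counts over the libraries of the other, there were 39 genes in PC9 and 93 in H1650, of which 32 and 82 were protein-coding. No count at all was seen in H1650 for 21 of the PC9 genes, and none in PC9 for 46 of the H1650 genes. NLRP2 (chr19:54953130-55001142), an inflammasome protein, had 423, 438 and 434 CPM in PC9 and no read in H1650 (at least 9647-fold higher in PC9). HS6ST2, a heparan sulfate sulfotransferase, had 81, 74.5 and 78.1 CPM in PC9 and 0.0413, 0 and 0 CPM in H1650 (5214-fold higher in PC9, 95% counting interval 935 to 205994). MUC4, above, belongs to the same PC9 group. In H1650, SPINK6, a skin protease inhibitor, had no read in PC9 and 141, 147 and 153 CPM in H1650 (at least 2891-fold higher in H1650), and EPDR1 had no read in PC9 and 93.1, 92.3 and 97.3 CPM in H1650 (at least 1856-fold higher in H1650). BARX1, a homeobox factor of stomach and face development, was 2219-fold higher in H1650, 95% counting interval 614 to 18326. PLXDC2 was at least 926-fold higher in H1650, and GYPC, a red cell membrane protein, was at least 652-fold higher in H1650. IFI44, RSAD2, ITGA4, DSG3 and CCL5 belong to the same H1650 group.

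Gene models differed for a part of these single-line genes. Of the 39 PC9 genes, 24 carried another identifier version in the 2 tables or shared at least 10% of their exonic bases with another gene, and 15 did not. Of the 93 H1650 genes, 43 did and 50 did not. NELFCD, a subunit of the elongation factor NELF that most cells express, had no read in PC9 and 225, 226 and 219 CPM in H1650 and another identifier version. DDX39B, a helicase of messenger RNA export, had 73.6, 72 and 69.9 CPM in PC9 and 0, 0 and 0 CPM in H1650, and 30.8% of its exonic bases are shared. PALM2AKAP2 shares 97.8% of its exonic bases and was likewise at 0 in H1650. TAF9, HSPA1B and CLN8 were at 0 in H1650, and PYURF was at 0 in PC9. These values are uncertain, and whether counting set them was not tested.

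The line difference was then read in the Tr-BrM libraries, which the BrM fit did not use. One fit over all 18 libraries tested 19076 genes, and the same edgeR test called 38.8% higher in PC9 and 43.4% higher in H1650 in Tr-BrM control, and 39.8% and 42.7% in Tr-BrM S100A9-inh. Of 3504 genes higher in PC9 by at least 1 in BrM, 2930 (83.6%) were also higher in PC9 in Tr-BrM control and 243 were higher in H1650. Of 3891 higher in H1650, 3290 (84.6%) were also higher there in Tr-BrM control and 162 were higher in PC9. In S100A9-inh these shares were 88.2% and 86%. The shares that also differed by at least 1 in the same direction were 67.8% of the PC9 genes and 69.9% of the H1650 genes in Tr-BrM control, and 73.8% and 71.3% in S100A9-inh. Most of the baseline directions were therefore seen again in separate libraries of the same lines, counted in the same tables. At the same time 54.6% of genes changed their line difference between BrM and Tr-BrM control by the interaction test, and 22.2% did so by at least 1. Between BrM and S100A9-inh the same test called 50.2% of genes.

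Gene groups kept their contrast to different degrees. The interferon list had medians of -3.84 in BrM, -3.34 in Tr-BrM control and -2.83 in S100A9-inh, with 44, 44 and 42 members higher in H1650. By the interaction test 25 of its 47 members had a higher PC9 minus H1650 difference in Tr-BrM control than in BrM and 6 had a lower one, and in S100A9-inh these were 40 and 3. Most of these members thus had a narrower contrast in S100A9-inh, with a median interaction of 1.74. The NRF2 list had medians of 1.70, 2.13 and 1.97, with 29, 30 and 30 members higher in PC9, and by the same test 16 of 33 had a higher difference in Tr-BrM control and 8 a lower one. The simple keratins had medians of 1.63, 1.67 and 2.0. The cholesterol list did not hold its contrast, with medians of 1.5, 0.01 and 0.98, and 22, 12 and 17 members higher in PC9. By the interaction test 24 of its 26 members had a lower PC9 minus H1650 difference in Tr-BrM control than in BrM. The DNA replication list moved the other way, with medians of -0.12, 0.48 and 0.27, and 38 of 45 members had a higher difference in Tr-BrM control. All genes had medians of -0.064, -0.085 and -0.058. By the interaction test, 5301 of all 19076 genes had a higher difference in Tr-BrM control than in BrM and 5121 a lower one. In S100A9-inh these were 4957 and 4627, and the list counts are to be read against them.

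**Figure D5:**
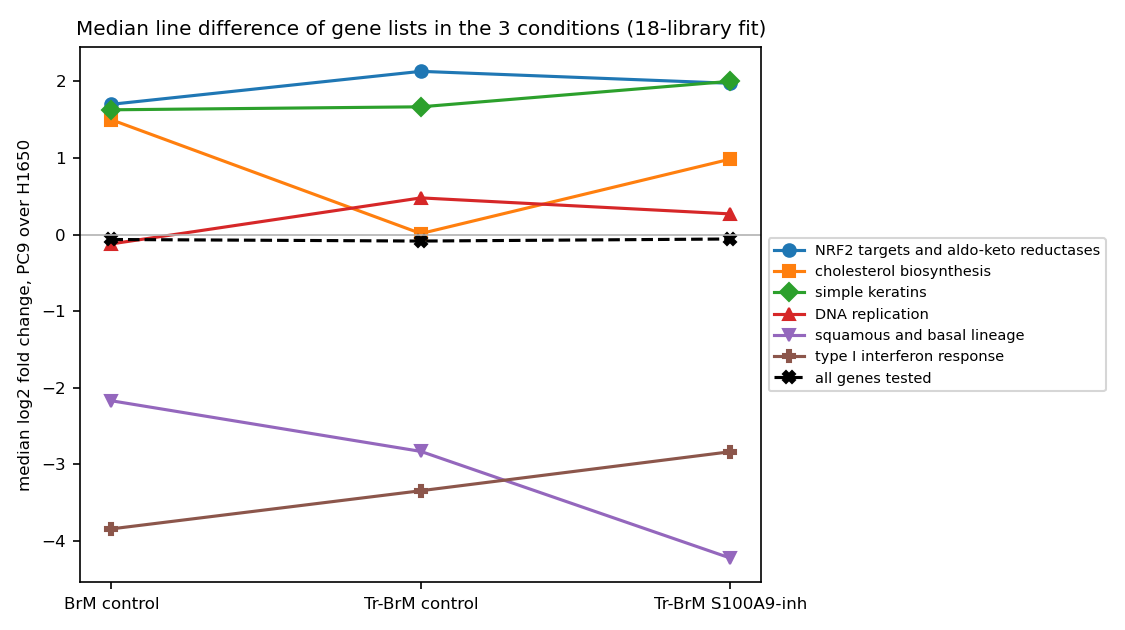
Median log2 difference (PC9 minus H1650) of 6 gene lists and of all genes in BrM, in Tr-BrM control and in S100A9-inh, from 1 fit over 18 libraries with 3 libraries per line and condition. The interferon list stays between -3.84 and -2.83, the NRF2 list between 1.70 and 2.13, and the cholesterol list is at 1.5, 0.01 and 0.98.

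Single genes of the EGFR and S100A9 axis showed the same mixture. Levels here are scaled within the 18-library fit and differ slightly from those above. In the order BrM, Tr-BrM control, S100A9-inh, EGFR averaged 1051 ± 11.5, 1505 ± 18.6 and 989.9 ± 31.6 CPM in PC9, against 436 ± 8.8, 339 ± 13.3 and 335 ± 4.9 CPM in H1650 (SD, n = 3 each), and PC9 was the higher line in all. NLRP2 averaged 442 ± 8.6, 481 ± 1.9 and 391 ± 20.6 CPM in PC9, against 0, 0.0689 ± 0.021 and 0.0468 ± 0.054 CPM in H1650, so this line difference was present in every condition. S100A9 averaged 131 ± 4.8, 805 ± 10.6 and 35.9 ± 2.7 CPM in PC9, against 192 ± 8.1, 285 ± 22.6 and 89 ± 7.9 CPM in H1650. PC9 was thus the lower line for S100A9 in BrM, the higher in Tr-BrM control (log2 1.5 ± 0.047) and the lower in S100A9-inh (log2 -1.31 ± 0.06). TLR4 averaged 21.6 ± 0.78, 0.294 ± 0.2 and 6.48 ± 0.81 CPM in PC9, against 0.588 ± 0.039, 0.96 ± 0.047 and 0.487 ± 0.17 CPM in H1650, and its PC9 excess was seen in BrM and in S100A9-inh but turned round in Tr-BrM control (log2 -1.69 ± 0.37). L1CAM averaged 447 ± 11.4, 82.8 ± 4.4 and 82.9 ± 5.8 CPM in PC9, against 13.7 ± 0.54, 10.1 ± 2 and 12.1 ± 0.36 CPM in H1650 and AKR1B10 averaged 480.3 ± 2, 1210 ± 18.6 and 904 ± 21.9 CPM in PC9, against 0.416 ± 0.08, 0.48 ± 0.14 and 0.405 ± 0.091 CPM in H1650, with PC9 higher throughout. ALDH1A1 averaged 2.36 ± 0.098, 120.1 ± 3.6 and 12 ± 0.42 CPM in PC9, against 0.407 ± 0.12, 3.53 ± 0.11 and 2.33 ± 0.54 CPM in H1650.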

How the data were processed

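Per the protocols in the labels, libraries were of the TruSeq type and made from poly-A selected RNA. For each line the authors deposited a gene table of 9 libraries, holding counts as whole numbers without normalization. Per the submitters' processing notes, STAR and GRCh38 were used, with R 4.0.1 and DESeq2 1.28.1. The counting tool, the annotation release and the use of strand are not stated by these notes, so reads of overlapping, antisense and near-identical genes cannot always be told apart. Libraries were grouped by the labelled line, condition and treatment.

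The tables held 60649 PC9 and 60603 H1650 identifiers. They were joined without version on 60399 shared identifiers, of which 52503 carried the same version; identifiers in 1 table only held 0.0307% of PC9 and 0.0386% of H1650 reads. Symbols and GRCh38 coordinates came from GENCODE 29 (58337 matched), and promoters from RefSeq. In R 4.3.3, counts were filtered with filterByExpr, scaled by TMM and tested with edgeR 4.0.16 (quasi-likelihood F-test, adjusted p by Benjamini-Hochberg). Another fit took all 18 libraries with 6 groups. Counts were also simulated with the library sizes and spread of this comparison, over 16405 genes. There 84% of 1.5-fold, 98% of 2-fold and 100% of 4-fold changes were recovered, and 5.91% of calls were false. Both simulated lines shared 1 profile, and only 50 genes per fold size, all above 1 CPM and balanced in direction, were changed. The real lines differ in most genes, so these shares do not cover scaling error or genes of low counts. A gene at 0 counts in 1 line was given a lower bound against 3 counts over the group, and a gene at 1 to 3 counts a ratio with a 95% counting interval; both cover counting error only.

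The gene lists (41 lists, 1234 of 1236 genes matched) and members were chosen with earlier results of these data known, so their counts and medians describe the lines and get no test of their own. Named genes are 12 fixed genes, the 15 largest called differences per direction at 10 CPM or more without overlap, the 10 highest single-line genes per direction, up to 4 members per list and direction at 5 CPM or more, the member of each list nearest 0, and, at 5 CPM or more, the 5 genes of lowest interaction p. Other list members named in the text, and the zinc finger block, were chosen after their values were seen. Alternatives were other scalings, filters, DESeq2 1.42.0, genes of the same version, protein-coding genes and leaving out each library. Genes of the Y chromosome and XIST are not reported, nor are some genes that the rule or the lists would name.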

Additional observations from a re-analysis of the deposited data

Results flagged for a closer look

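The 5 genes listed here, all at 5 CPM or more in both lines of BrM, had the smallest p-values for a line difference that was not the same in Tr-BrM control as in BrM (edgeR interaction test over 18 libraries). Levels follow in the order BrM, Tr-BrM control, S100A9-inh. The matrix protein FN1 averaged 12929 ± 46, 486 ± 9.3 and 248 ± 15.3 CPM in PC9, against 764 ± 17.5, 2746 ± 72 and 3511 ± 56.4 CPM in H1650, so the higher line was PC9 in BrM and H1650 in both others, and its line difference moved by -6.58 ± 0.05 (adjusted p = 2.06e-49). Mesothelin (MSLN) averaged 9.93 ± 0.72, 138 ± 4 and 47.3 ± 0.6 CPM in PC9, against 146 ± 3.1, 5.04 ± 0.77 and 4.21 ± 0.25 CPM in H1650 and moved by 8.64 ± 0.092, with H1650 the higher line in BrM and PC9 the higher in both others. The hyaluronan receptor CD44 averaged 1459 ± 13.8, 2280 ± 12.4 and 1296 ± 3.6 CPM in PC9, against 654 ± 3.9, 14.2 ± 0.99 and 19.4 ± 2.7 CPM in H1650 and moved by 6.18 ± 0.066, with PC9 higher throughout. Moesin (MSN), which links membrane proteins to actin, averaged 1373 ± 17.7, 2814 ± 9.7 and 1198 ± 38.1 CPM in PC9, against 614 ± 5.4, 75.9 ± 4.5 and 97.3 ± 2.2 CPM in H1650 and moved by 4.05 ± 0.05, again with PC9 higher throughout. The metalloprotease inhibitor TIMP3 averaged 40.3 ± 0.59, 133 ± 4.9 and 74.6 ± 2.4 CPM in PC9, against 199.7 ± 0.77, 23.1 ± 1.9 and 24.6 ± 1.8 CPM in H1650 and moved by 4.82 ± 0.073, with H1650 the higher line in BrM only. Among all genes, 54.6% passed this test.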

How the results depend on the processing

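No paired analysis was possible because the labels give the 2 lines no shared replicate numbers. DESeq2 size factors, the DESeq2 test, no filter on low counts, upper quartile or total count scaling, genes of the same identifier version and protein-coding genes only kept each count of called genes within 1.5 times. Upper quartile scaling called 6569 genes higher in PC9 and 7914 in H1650, and total count scaling called 6090 and 8461. With a filter at 10 CPM, which tests fewer genes, 4670 genes were higher in PC9 and 4766 in H1650, or 1796 and 1788 at a difference of at least 1. That filter left 13 squamous and 14 mesenchymal genes higher in H1650, 4 HOX genes higher in H1650 and 5 airway genes higher in PC9. With genes of the same version only, 12 interferon genes were higher in H1650 and 14 cholesterol genes in PC9. Leaving out each library gave 7093 to 7161 genes higher in PC9 and 7365 to 7497 higher in H1650, and 3618 to 3738 and 3991 to 4166 at a difference of at least 1. In those fits 44 interferon, 19 to 22 squamous, 23 to 26 mesenchymal and 18 to 20 HOX genes were higher in H1650, and 29 to 30 NRF2, 21 to 22 cholesterol, 7 keratin and 9 airway genes were higher in PC9. Single-line genes numbered 72 in PC9 and 146 in H1650 at 5 CPM, 21 and 46 at 0 counts in the other line, and 15 and 50 among genes with the same version and little sharing of exons. Genes of the same version alone gave 56 in H1650, and leaving out a library gave 38 to 47 in PC9 and 92 to 103 in H1650. Chromosome medians relative to all genes were -0.57, 0.60, 0.29, -0.33 and -0.58 for chromosomes 4, 13, 14, 15 and 21 with genes of the same version.

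Among the named genes, AGER and ZNF431, neither of which passed the test, changed sign. AGER went to -0.023 by upper quartile and -0.12 by total count, and ranged from -0.025 to 0.20 when 1 library was left out. ZNF431 went to -0.034 by upper quartile and -0.13 by total count, and ranged from -0.012 to 0.14 when 1 library was left out. With total count scaling BTC (0.30), CGAS (0.062) and TYK2 (0.053) no longer passed the test, and CGAS also did not by upper quartile (0.16). The cause of these changes was not tested. At this depth a gene at 0 counts over a group sets only a bound, and a gene at 1 to 3 counts sets a ratio with a counting interval.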

Other observations

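Some gene classes outside the lists also differed in direction. Of 761 processed pseudogenes tested, 130 were higher in PC9 and 452 in H1650, with a median of -0.85, against 0.0077 over 13469 protein-coding genes. Reads of such copies cannot always be told from those of their parent genes. Of 33 clustered protocadherins, which give neurons their surface identity, 2 were higher in PC9 and 30 in H1650, with a median of -5.71 or -4.93 with genes at 0 counts set to their bound. Of all genes, 44.2% were higher in H1650. Levels were low, with a median of 0.034 CPM in PC9 and 2.85 CPM in H1650. At most 3 counts were seen in PC9 for 20 members, which passed the filter through H1650 and had to differ. These genes share exons, so the values of single members are uncertain. The genome was also read in steps of 10 Mb with at least 20 tested genes, and the extremes are given. The highest median, 1.77 over 26 genes, was in the first 10 Mb of chromosome 8, with 18 higher in PC9 and 2 in H1650. The next 10 Mb had a median of 1.36, with 28 of 33 higher in PC9, against 42.1% of all genes. The lowest, -6.89 over 46 genes, was on chromosome 19 from 20000001 to 30000000. This step overlaps the zinc finger block above. Over its 21 genes at 5 CPM or more in either line the median was -1.75, so low counts set much of the size.

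Metabolic and chromatin lists had calls in both directions, as had all genes, with 42.1% higher in PC9 and 44.2% in H1650. Of 36 hypoxia and glycolysis genes, 15 were higher in PC9 and 18 in H1650, and 3 and 12 were so by at least 1, with a median of -0.077. Among them were the stress gene NDRG1 at 48.6 ± 1.7 CPM in PC9 and 409.6 ± 1.2 CPM in H1650 and the brain-type aldolase ALDOC at 19.8 ± 1.4 CPM in PC9 and 1.44 ± 0.18 CPM in H1650. Of 23 genes of serine, glycine and one-carbon metabolism, 10 were higher in PC9 and 13 in H1650, with 7 in each direction by at least 1. PHGDH, the first enzyme of serine synthesis, differed by 1.56 ± 0.025, and the mitochondrial folate enzyme MTHFD2 by -1.73 ± 0.029. Of 30 chromatin remodelling genes, 11 were higher in PC9 and 14 in H1650, 4 and 5 by at least 1, among them the DNA methyltransferase DNMT3A (1.81 ± 0.059) and the remodeller SMARCA1 (-2.11 ± 0.04).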
